A study of Mus musculus with 8 samples.

Results

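The rows examined here are 3 of the 27178 genes listed in the deposited tables, chosen by their Entrez identifiers: ‘19791’ and ‘100861531’, which are treated here as ribosomal RNA identifiers, and ‘102436’, which is Lars2. They were picked after their values in these 8 libraries were known, so all levels, ratios and fold changes of the 3 are a description and carry no test. Neither the tables nor the annotation used here pairs the first 2 with a gene name or a position, so whether they are ribosomal RNA was not checked against an annotation. The authors' FPKM values (counts per kilobase of gene length, scaled to the library total) imply that ‘19791’ was counted over 938 bases and ‘100861531’ over 5868 bases, and they are called the short and the long identifier below. Lars2 was counted over 3881 bases.

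Messenger RNA was sequenced from embryonic mouse cortex for a pair of experiments on Lockd, a long noncoding RNA. In the knockdown experiment, ICR embryos of wild-type genotype received a plasmid at 3 µg/µl by in utero electroporation at E14.5 (embryonic day), either a control or one that expresses an shRNA against Lockd, and cells with GFP were sorted at E16.5. For the knock-in experiment, untreated C57BL/6 cortices of the genotypes wild type (WT) and PlyA-KI were collected at E13.5 and pooled; what the PlyA-KI allele consists of is not explained in the labels. Each of the 4 groups has 2 libraries that the labels call biological replicates, with no litter or embryo number given, so any p-value measures only the spread between these libraries. Strain, age and sorting all differ between the experiments, which share no library.

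Totals ran from 12805874 to 15911118 counts among the sorted libraries and from 35167646 to 47460020 among the cortices. Lockd was at 8.90 and 7.80 CPM (counts scaled to a library total of 1000000) in control, 4.85 and 2.83 in shRNA, 22.1 and 24.0 in WT, and 0.102 and 0.0569 in PlyA-KI. The cortical markers Pax6, Eomes and Neurod6 were detected in every library. Erythroid genes summed to 5.60 to 15.9 CPM in the sorted cells and to 347 to 634 CPM in the whole cortices.

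Ribosomal RNA is made by RNA polymerase I from tandem gene repeats as a long precursor, which is cut and modified in the nucleolus into the RNAs of the small and large ribosomal subunits. It is by far the most abundant RNA of a cell and as a rule has no poly(A) tail, so messenger RNA capture is meant to leave it behind. Lars2 encodes the mitochondrial leucyl-tRNA synthetase, the enzyme that loads leucine onto mitochondrial tRNA for translation of the respiratory chain subunits encoded by mitochondrial DNA. The gene is also known among users of the mouse genome for a 3′ untranslated region that contains letters like those of large-subunit ribosomal RNA. The comparison of these rows asks whether they move together from library to library as carried-over ribosomal RNA would.

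Lars2 lies on chromosome 9 at 123366927 to 123462675 (RefSeq, GRCm38.p6), and no other GENCODE M21 gene overlaps it. Its longest transcript in GENCODE has 3894 bases in 21 exons, and the last exon (123461499 to 123462664) holds a 3′ untranslated region of 989 bases, 25.4% of the transcript. Every word of 31 bases of it was looked for, on both strands, in the 141758 GENCODE transcripts of other genes. It was found in 2 of them, 1 of AA474408 on chromosome 7 and 1 of Gm15564 on chromosome 16, and in both cases the shared letters lie in the last exon of Lars2, in the 3′ untranslated region. With AA474408 these were 3 stretches of 41, 34 and 41 bases, and with Gm15564 1 stretch of 52 bases (Lars2 at 123462048 to 123462099). The first 30 bases of each stretch shared with AA474408 are shown because they mark the part of Lars2 that reads from another locus could match. They are given 5′ to 3′ from the GENCODE M21 transcript (GRCm38, minus strand, chr7:110059790-110059819, chr7:110059751-110059780 and chr7:110059714-110059743), and the same letters stand on the plus strand in Lars2 (chr9:123461942-123461971, chr9:123462003-123462032 and chr9:123462043-123462072).
Stretch 1: tgtcagaaaagttaccacagggataactgg
Stretch 2: gctttttgatccttcgatgtcggctcttcc
Stretch 3: aagcagaattcaccaagcgttggattgttc

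GENCODE places CT010467.1, a gene with a transcript of the type rRNA, on chromosome 17 at 39846353 to 39848201, beside the noncoding genes Gm26917 and Gm42418. None of the 9 Lars2 transcripts shared a word of 31 bases, or of 20 bases, with the 5 transcripts of these 3 genes on either strand. The large-subunit ribosomal RNA sequence was not used here, so this search cannot tell whether Lars2 shares letters with it. The likeness of the Lars2 stretches to it was not measured. The rows carry counts per gene, so reads from the coding part of Lars2 cannot be told apart from reads in its 3′ untranslated region.

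The short identifier had 1667 and 2761 counts in control, 2264 and 892 in shRNA, 1855 and 1760 in WT, and 4147 and 4987 in PlyA-KI. The long identifier had 43292 and 80944 counts in control, 58996 and 30196 in shRNA, 53175 and 50383 in WT, and 117232 and 145063 in PlyA-KI. Lars2 had 2392 and 4238 counts in control, 2680 and 1778 in shRNA, 9442 and 8578 in WT, and 29569 and 14766 in PlyA-KI. For the lowest of these counts, the short identifier in shRNA 2, the 95% exact interval runs from 52.4 to 59.9 CPM around 56.1 CPM. Such intervals cover counting error only.

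As a share of the library, the short identifier was at 130.2 and 192 CPM in control, 169 and 56.1 CPM in shRNA, 47.2 and 37.1 CPM in WT, and 106 and 142 CPM in PlyA-KI. Control 2 was the highest and shRNA 2 the lowest of the sorted libraries, and the control and shRNA groups overlapped. Both PlyA-KI libraries lay above both WT libraries.

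The long identifier was at 3381 and 5638 CPM in control, 4402 and 1898 CPM in shRNA, 1352 and 1062 CPM in WT, and 2984 and 4125 CPM in PlyA-KI. It took up 0.106% of the counts of WT 2, the lowest of the 8 libraries, and 0.564% of those of control 2, the highest. In both experiments the libraries fell in the same order as for the short identifier, with control 2 above shRNA 1, control 1 and shRNA 2, and with PlyA-KI 2 above PlyA-KI 1, WT 1 and WT 2.

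Lars2 was at 187 and 295 CPM in control, 200.0 and 112 CPM in shRNA, 240.0 and 181 CPM in WT, and 753 and 419.9 CPM in PlyA-KI. The order of the sorted libraries was that of the ribosomal RNA identifiers. The 95% exact intervals of shRNA 1 and control 1 overlapped in Lars2 (192 to 208 and 179 to 194 CPM). Whether this pair differs beyond counting error was not tested. Among the cortices the order differed in 1 place: PlyA-KI 1 was above PlyA-KI 2, where both identifiers had PlyA-KI 2 above PlyA-KI 1.

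**Figure D1:**
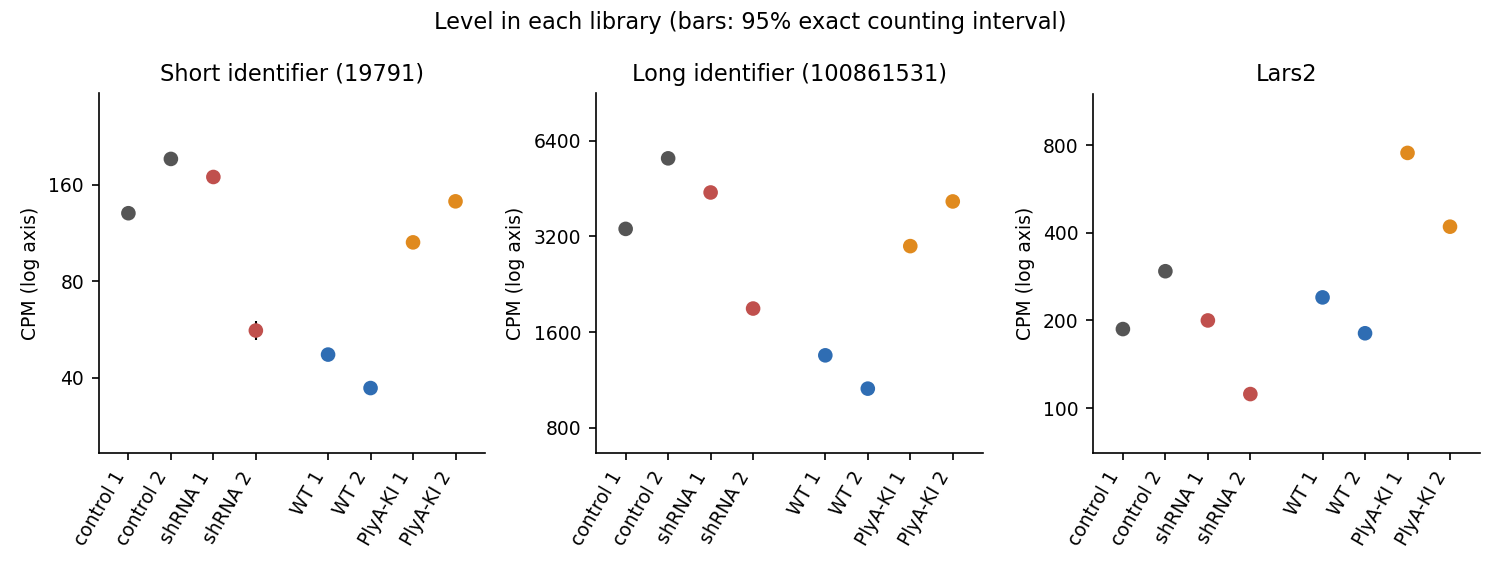
Level of the short identifier, the long identifier and Lars2 in each library, in CPM on a log axis, with 95% exact counting intervals that are mostly smaller than the points. The 4 sorted libraries (left) have the same order in all 3 panels, and PlyA-KI 1, at 753 CPM of Lars2 against 419.9 CPM in PlyA-KI 2, is the library whose place differs.

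Per length, the authors' FPKM of the short identifier was 139 and 205.0 in control, 180.1 and 59.8 in shRNA, 50.3 and 39.5 in WT, and 113 and 151 in PlyA-KI. That of the long identifier was 576 and 961 in control, 750.2 and 323 in shRNA, 230.4 and 181 in WT, and 509 and 703 in PlyA-KI. The long identifier was thus the higher per length in every library, at 4.15 to 5.41 times the short identifier in the knockdown libraries and 4.52 to 4.65 times in the knock-in libraries. In counts this ratio was 26.0 and 29.3 in control, 26.1 and 33.8 in shRNA, 28.7 and 28.6 in WT, and 28.3 and 29.1 in PlyA-KI. Among the 4 cortices the ratio spanned 1.03-fold, while the level of either identifier spanned 3.82-fold and 3.89-fold. Among the sorted libraries it spanned 1.30-fold, against 3.43-fold for the level of the short identifier and 2.97-fold for that of the long identifier. The 95% exact interval of shRNA 2, 31.7 to 36.2, lay above that of control 1, 24.7 to 27.3, so within the sorted libraries the ratio moved by more than counting error. The 4 intervals of the cortices overlapped.

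The ratio of Lars2 to the short identifier was less steady. It was 1.44 and 1.54 in control, 1.18 and 1.99 in shRNA, 5.09 and 4.87 in WT, and 7.13 and 2.96 in PlyA-KI, in counts. The sorted libraries spanned 1.68-fold and the cortices 2.41-fold. The ratio of Lars2 to the long identifier spanned 1.30-fold in the sorted libraries and 2.48-fold in the cortices. Each of the 4 cortices had more Lars2 per count of either identifier than any sorted library did, a difference that cannot be told apart from strain, age and sorting.

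**Figure D2:**
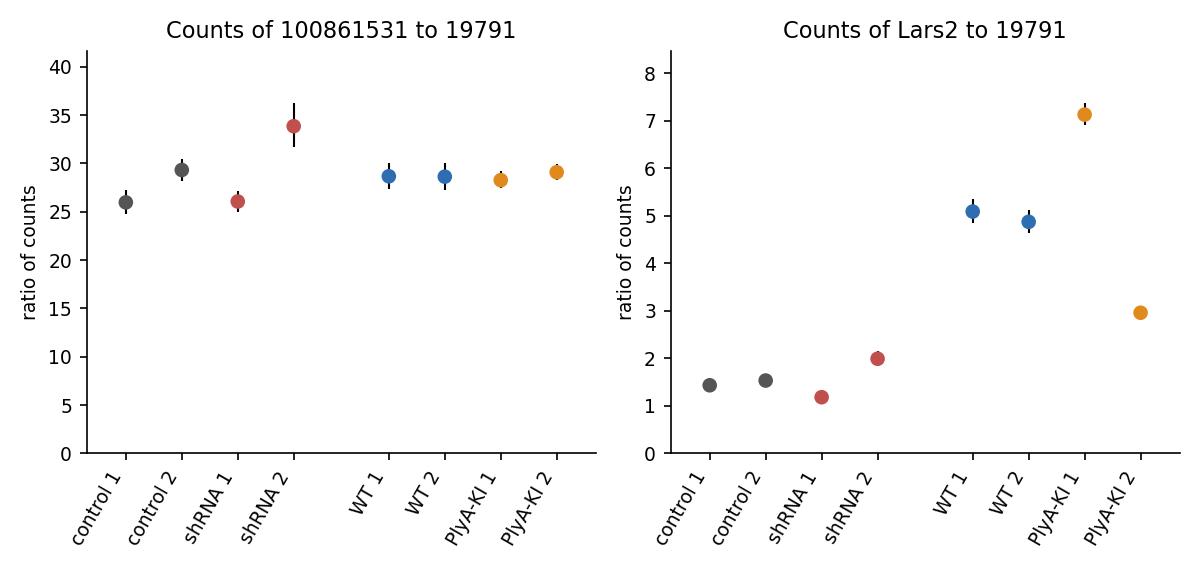
Counts of the long identifier (left) and of Lars2 (right) for each count of the short identifier, by library, with 95% exact intervals that cover counting error only. The left ratio stays between 26.0 and 33.8, whereas the right one runs from 1.18 in shRNA 1 to 7.13 in PlyA-KI 1.

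In absolute terms, Lars2 was higher where the long identifier was higher in all 6 pairs of sorted libraries and in 5 of the 6 pairs of cortices. In 1 of the sorted pairs (control 1 and shRNA 1) the 95% exact intervals of Lars2 overlapped. Between shRNA 2 and control 2, the sorted libraries farthest apart, Lars2 differed by 49.0 CPM for each 1000 CPM of the long identifier. Between WT 2 and PlyA-KI 2 it differed by 78.1 CPM and between WT 2 and PlyA-KI 1 by 297 CPM for each 1000 CPM. From PlyA-KI 1 to PlyA-KI 2, Lars2 was lower while both identifiers were higher. Pairs share libraries and are not independent.

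**Figure D3:**
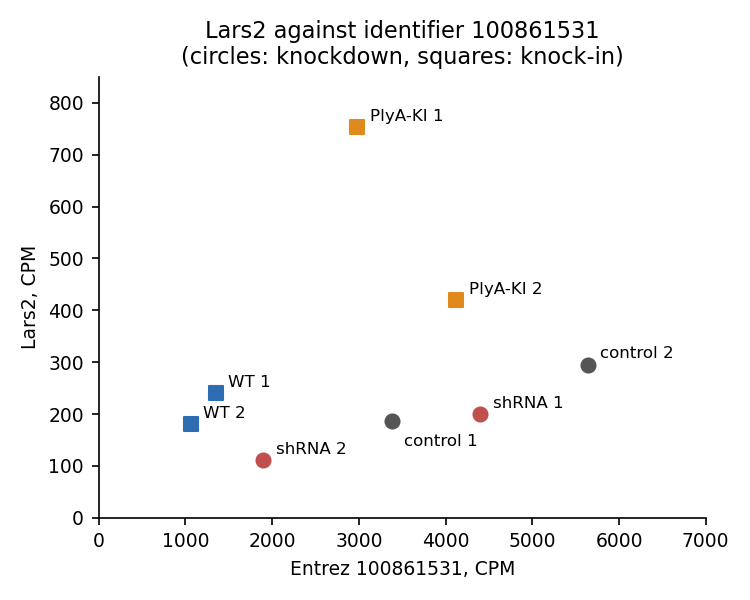
Level of Lars2 against that of the long identifier, both in CPM on linear axes, with 1 point for each library (circles, knockdown experiment; squares, knock-in experiment). The sorted libraries lie along a shallow rise from shRNA 2 (112 CPM of Lars2) to control 2 (295 CPM), the cortices have more Lars2 for their level of the long identifier, and PlyA-KI 1 stands apart at 753 CPM.

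Replicates of a group differed more in these rows than in most genes. Among 10270 genes with a mean of 5 CPM or more in each experiment, the median fold difference between the 2 libraries of a group was 1.11 in control, 1.13 in shRNA, 1.07 in WT and 1.08 in PlyA-KI. For the short identifier it was 1.48, 3.01, 1.27 and 1.34, for the long identifier 1.67, 2.32, 1.27 and 1.38, and for Lars2 1.58, 1.79, 1.33 and 1.79, in the same order of groups. In shRNA only 2 genes differed more than the short identifier and 6 more than the long identifier, and in PlyA-KI 21 differed more than Lars2. The 2 identifiers moved the same way in all 4 replicate pairs and Lars2 moved with them in 3, the exception being PlyA-KI.

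The knockdown comparison asks what lowering Lockd does to sorted cells. Here the mean level of the short identifier was 161 ± 43.9 CPM with control and 113 ± 79.8 CPM with shRNA (SD, n = 2 each), with a log2 fold change of −0.51 (SE 0.35). The long identifier was at 4509 ± 1596 and 3150 ± 1771 CPM (SD, n = 2 each), with −0.51 (SE 0.31). Lars2 was at 241 ± 76.6 and 156 ± 62.4 CPM (SD, n = 2 each), with −0.62 (SE 0.24). For all 3 the groups overlapped, since shRNA 1 lay above control 1, although the 95% exact intervals of these libraries overlapped for Lars2. The differences turned on single libraries: without shRNA 2 they were 0.08, −0.02 and −0.26, without control 2 −0.18, −0.07 and −0.23, without shRNA 1 −1.51, −1.24 and −1.09, and without control 1 −0.77, −0.83 and −0.91, in the same order. Over all 13758 genes edgeR called 0 (0%) and 1033 had an unadjusted p under 0.05, while DESeq2 called 48 (0.446% of those it gave an adjusted p).

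The knock-in comparison asks how PlyA-KI cortices differ from WT. The short identifier was at 42.1 ± 7.13 CPM in WT cortices and 124 ± 25.6 CPM in those of PlyA-KI (SD, n = 2 each), with a log2 fold change of 1.55 (SE 0.15). The long identifier was at 1207 ± 205 and 3555 ± 806 CPM (SD, n = 2 each), also with 1.55 (SE 0.16). Lars2 was at 210.4 ± 41.9 and 586 ± 235 CPM (SD, n = 2 each), with 1.47 (SE 0.22). For all 3 the libraries of the groups did not overlap, as for 23.7% of all 15398 genes tested in that direction. Over all genes tested edgeR called 8 (0.0520%), of which 7 were higher in PlyA-KI (0.0455%), and DESeq2 called 115 (0.950% of those it gave an adjusted p). Nothing is read from these shares for the 3 rows, and no call is given for them, because the rows were chosen on these values. Lars2 lay at 0.99 without PlyA-KI 1 and at 1.82 without PlyA-KI 2, while the short identifier ranged from 1.30 to 1.75 and the long identifier from 1.28 to 1.77 when any 1 library was left out.

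Other measures moved with the PlyA-KI group. Summed over 8 genes, erythroid markers were at 347 and 386 CPM in WT and 439 and 634 CPM in PlyA-KI, with 7 of the 8 higher in both PlyA-KI libraries than in either WT library. Over all 15398 genes tested, 23.7% were higher in this way, and markers of 1 cell type are not independent of each other. Alas2, the first enzyme of haem synthesis in red cells, rose with a log2 fold change of 1.01 (SE 0.13, adjusted p = 0.0229, quasi-likelihood test of edgeR, adjusted by Benjamini-Hochberg over all genes, as is each adjusted p here). Markers of pericytes and fibroblasts summed to 148 and 159 CPM in WT and to 120 and 282 CPM in PlyA-KI, with 5 genes, those of endothelium to 89.2 and 85.8 against 75.1 and 91.9 CPM and those of microglia to 15.0 and 14.9 against 10.6 and 18.8 CPM, with 4 genes each. Markers of the ganglionic eminence, where cortical interneurons are born, summed over 4 genes to 20.4 and 10.5 CPM in WT and 39.5 and 22.8 CPM in PlyA-KI, so the groups did not overlap and the libraries had the order of Lars2. Of these, Lhx6 lay at 1.36 (SE 0.37, adjusted p = 0.267, edgeR), Gad2 at 0.91 (SE 0.29), Dlx1 at 0.77 (SE 0.31) and Dlx2 at 0.71 (SE 0.40), and none passed. In the sorted cells erythroid markers summed to 7.89 and 6.76 CPM in control and 5.60 and 15.9 CPM in shRNA, where Hbb-bh1 was at 0 in all 4 libraries. The part of these markers in the levels of the 3 rows was not tested, and in whole tissue a change in the number of cells of a type and a change in RNA per cell cannot be told apart.

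The ribosomal RNAs of the mitochondrion, which are encoded by mitochondrial DNA and carry short A tails, were measured by rows that the choice did not use. The small-subunit RNA mt-Rnr1 was at 226 and 240.1 CPM in control, 190.1 and 207 in shRNA, 115 and 98.2 in WT, and 149 and 162 in PlyA-KI. It was higher in both PlyA-KI libraries than in either WT library, as were 23.7% of all 15398 genes tested. The difference was 0.54 on the log2 scale (SE 0.10), which was short of the threshold of 0.05 (adjusted p = 0.155, edgeR), while DESeq2 called mt-Rnr1 (0.54, SE 0.11, adjusted p = 0.000266). The large-subunit RNA mt-Rnr2 was at 669 and 622 CPM in control, 563 and 670 in shRNA, 345 and 264 in WT, and 362 and 347 in PlyA-KI, with log2 fold changes of −0.05 (SE 0.14) in the knockdown and 0.21 (SE 0.11) in the knock-in experiment. In the knockdown experiment mt-Rnr1 lay at −0.22 (SE 0.13). Among the cortices mt-Rnr1 had the order of both identifiers, with PlyA-KI 2 the highest and WT 2 the lowest. The library of shRNA 2, lowest for all 3 rows among the sorted cells, was not the lowest for either mitochondrial RNA. The other 27 ribosomal RNA rows of the list, Rn5s, Rn4.5s and the n-R5s genes, had no count in any library.

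Small noncoding RNAs that as a rule lack a poly(A) tail were counted in the same libraries. Rn7sk, the RNA of the 7SK particle that restrains transcription elongation, had 53 and 277 counts in control, 79 and 97 in shRNA, 24 and 16 in WT, and 34 and 52 in PlyA-KI. In CPM this was 4.14 and 19.3, 5.89 and 6.10, 0.610 and 0.337, and 0.865 and 1.48. Control 2, the library highest in both ribosomal RNA identifiers, was the highest here too, but shRNA 2, the lowest in both, was not the lowest of the sorted libraries. Among the cortices Rn7sk had the order of both identifiers, PlyA-KI 2 above PlyA-KI 1, WT 1 and WT 2, on 16 to 52 counts.

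Rmrp, the RNA of the RNase MRP particle that cuts the ribosomal precursor, had 4 and 109 counts in control, 20 and 24 in shRNA, 0 and 8 in WT, and 0 and 10 in PlyA-KI. A count of 0 allows up to 0.0763 CPM in WT 1 and 0.0764 CPM in PlyA-KI 1. Rpph1, the RNA of RNase P, which trims the ends of tRNAs, had 14 and 64, 10 and 31, 6 and 16, and 12 and 15 counts in the same groups. Bc1, a neuronal RNA of the dendrites, had 156 and 132, 86 and 153, 29 and 73, and 55 and 49 counts. Terc had at most 8 counts in a library, Vaultrc5 at most 4 and Rny1 at most 1. Control 2 thus stood out in Rn7sk, Rmrp and Rpph1 but not in Bc1.

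Of the 10 small noncoding RNAs listed, 4 could be tested in the knockdown experiment, all below 0 (median log2 fold change −0.99), and 3 in the knock-in experiment, all above 0 (median 0.53). None passed in edgeR (adjusted p = 0.717 for Rn7sk, 0.817 for Rmrp, 0.836 for Rpph1 and 0.877 for Bc1 in the knockdown experiment, and 0.337 for Rn7sk, 0.772 for Rpph1 and 0.823 for Bc1 in the knock-in experiment), 0 and 1 had an unadjusted p under 0.05, and DESeq2 called 0. Medians over all genes were 0 and 0.01. Without control 2 the knockdown median was 0.46, and the knock-in median was 0.10 without WT 1, 0.27 without PlyA-KI 2 and 0.92 without WT 2. Rmrp, with 109 of its counts in control 2, passed the filter on low counts in the knockdown experiment only.

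Small nuclear and nucleolar RNAs, which guide splicing and the chemical modification of ribosomal RNA, summed to 110.3 to 133 CPM in the sorted libraries and 95.1 to 103 CPM in the cortices over 138 genes. Their lowest sum was in shRNA 1 for the sorted cells and in WT 1 for the cortices, so it did not follow the order of the 2 identifiers. Of 48 tested in the knockdown experiment 22 lay above 0 (median −0.02), and of 72 tested in the knock-in experiment 33 did (median −0.06). Snora16a had the smallest p in the first (log2 fold change −1.80, SE 0.63, adjusted p = 0.434, edgeR) and Snord104 in the second (0.92, SE 0.28, adjusted p = 0.270, edgeR). Many of these genes lie inside the introns of host genes, whose reads may count toward them.

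Histone genes, most of whose messages end in a stem loop and not in a poly(A) tail, summed to 333 and 273 CPM in control, 330.0 and 258 CPM in shRNA, 191 and 176 CPM in WT, and 214 and 209 CPM in PlyA-KI over 69 genes. Among the sorted cells control 2 was not the highest in this sum. Among the cortices the sum had the order of Lars2, with PlyA-KI 1 the highest and WT 2 the lowest. Of 18 tested in the knockdown experiment 12 lay below 0 (median −0.19), and of 26 tested in the knock-in experiment 14 lay above 0 (median 0.03). Without control 1 the knockdown median turned to 0.06. H2bc4 (−0.38, SE 0.20, adjusted p = 0.781, edgeR) and H2bu2 (0.34, SE 0.09, adjusted p = 0.257, edgeR) had the smallest p.

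Lars2 was set beside 19 other genes that charge mitochondrial tRNAs, the mitochondrial synthetases and the subunits of the amidotransferase that makes glutaminyl-tRNA there. Per length, by the authors' FPKM, Lars2 was at 48.1 and 76.0 in control, 51.5 and 28.8 in shRNA, 61.9 and 46.6 in WT, and 194 and 108 in PlyA-KI. It was the highest of the 20 genes in 7 libraries and second to Gatc, an amidotransferase subunit, in shRNA 2. The median of the others stayed between 8.28 and 10.4 FPKM in all 8 libraries, so Lars2 was 3.19 times that median in shRNA 2 and 21.0 times in PlyA-KI 1.

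Across the libraries of an experiment the other 19 genes spanned 1.07-fold to 1.49-fold (median 1.24) in the knockdown and 1.04-fold to 1.35-fold (median 1.16) in the knock-in experiment, whereas Lars2 spanned 2.64-fold and 4.17-fold. In the fits, 12 of the 19 lay above 0 and 7 below in the knockdown experiment (median 0.05), and 7 above and 12 below in the knock-in experiment (median −0.05). Vars2, the valine enzyme, lay at 0.38 (SE 0.17, adjusted p = 0.64, edgeR) in the former, and Pars2, the proline enzyme, at 0.27 (SE 0.15, adjusted p = 0.473, edgeR) in the latter. Neither passed.

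**Figure D4:**
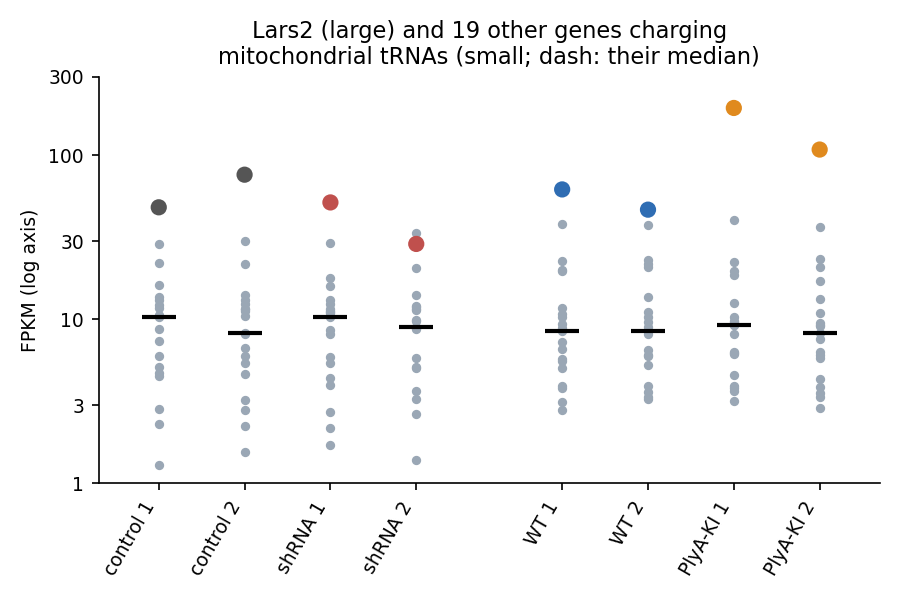
Level per gene length (FPKM, log axis) of Lars2 (large points, coloured by group) and of 19 other genes that charge mitochondrial tRNAs (small points; dash, their median) in each library. The median of the 19 stays between 8.28 and 10.4 FPKM while Lars2 runs from 28.8 to 194 FPKM.

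The genes next to Lars2 on chromosome 9 varied less than it did. In the knock-in experiment Sacm1l, a phosphoinositide phosphatase, was at 60.6 and 57.4 CPM in WT and 63.3 and 67.4 CPM in PlyA-KI (log2 fold change 0.14, SE 0.08), and Limd1, a LIM domain adaptor, at 72.7 and 71.3 against 60.1 and 63.1 CPM (−0.23, SE 0.08, adjusted p = 0.295, edgeR). The other neighbours lay at 0.04 for Zdhhc3, 0.01 for Exosc7, 0.32 for Tmem158 and −0.16 for Gm10052. In the knockdown experiment the same 6 genes lay at 0.12, −0.14, −0.06, −0.12, 0.44 and −0.07, in that order of naming. None passed over all genes in either experiment.

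Genes for making, processing and degrading ribosomal RNA showed small differences. Of 15 genes of the RNA polymerase I machinery, 8 lay above 0 and 7 below in the knockdown experiment (median 0.004), and 5 above and 10 below in the knock-in experiment (median −0.07). Polr1a and Polr1b, the largest subunits of the polymerase, lay at −0.32 (SE 0.09, adjusted p = 0.27, edgeR) and −0.26 (SE 0.09, adjusted p = 0.289, edgeR) in PlyA-KI, on the other side of 0 from both identifiers. Of 73 processing factors, 46 lay below 0 in the knockdown (median −0.04) and 49 in the knock-in experiment (median −0.05, and 0.01 without WT 2). Tcof1, which links polymerase I transcription to processing, lay at −0.34 (SE 0.08, adjusted p = 0.248, edgeR) in PlyA-KI, and Rrp1b, a nucleolar protein, at −0.32 (SE 0.08, adjusted p = 0.257, edgeR). Of 18 exosome and cofactor genes, which trim and destroy ribosomal precursors, 8 lay above 0 in the knockdown (median −0.01) and 9 in the knock-in experiment (median 0). C1d, an exosome cofactor, had the smallest p in the former (−0.54, SE 0.17, adjusted p = 0.31, edgeR), and Exosc10, the nuclear exonuclease subunit, in the latter (−0.19, SE 0.08, adjusted p = 0.359, edgeR).

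Of 24 cytosolic tRNA synthetases and their scaffold proteins, 15 lay above 0 in the knockdown (median 0.01) and 6 in the knock-in experiment (median −0.09). Gars, the glycine enzyme, lay at 0.22 (SE 0.13, adjusted p = 0.817, edgeR) in the former, and Vars, the cytosolic valine enzyme, at −0.25 (SE 0.07, adjusted p = 0.27, edgeR) in the latter. Over these 8 lists together, the mitochondrial ribosomal RNAs and cell type markers not counted in, edgeR called 0 of 219 tested genes in the knockdown and 0 of 250 in the knock-in experiment, against 0% and 0.0520% of all genes. At an unadjusted p under 0.05 there were 3 (1.37%, against 7.51% of all genes) and 23 (9.20%, against 12.5%). DESeq2 called 0 in both, of the 161 and 163 listed genes that it gave an adjusted p.

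**Figure D5:**
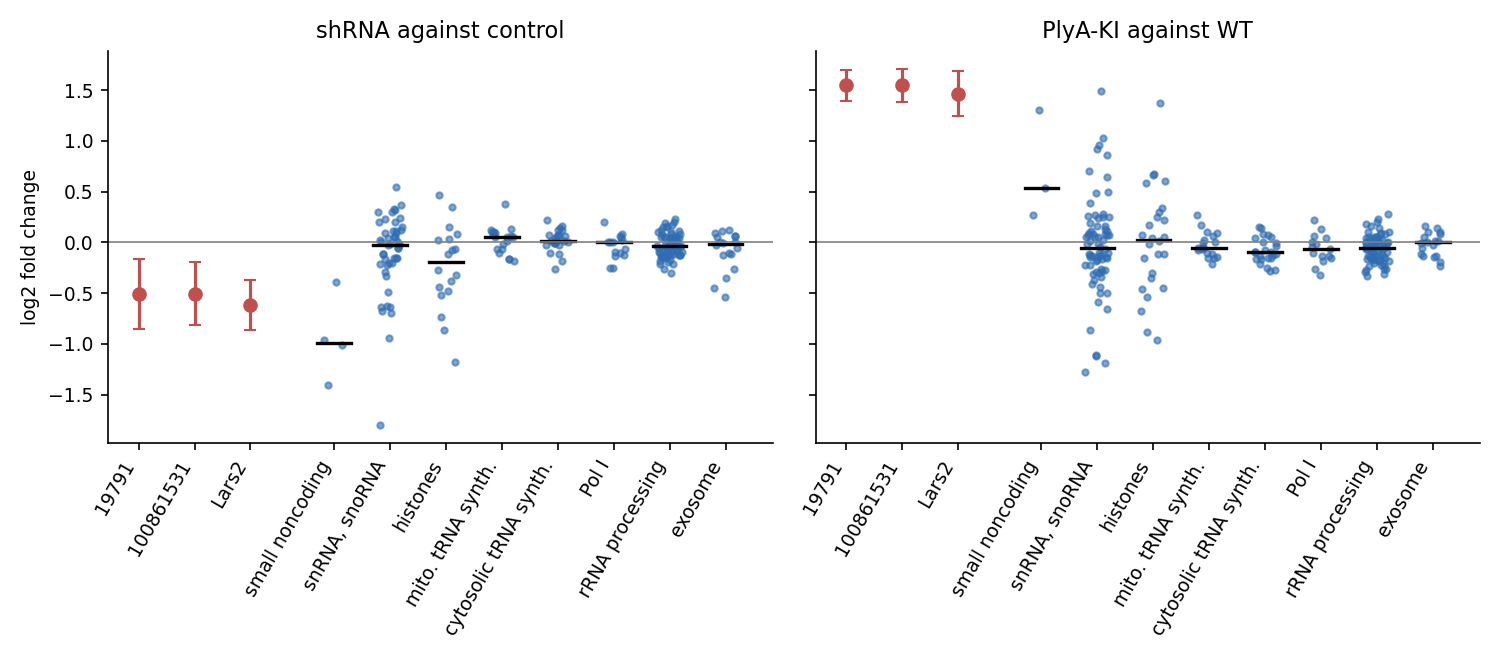
Log2 fold change of the 3 rows (red, with standard error) and of every tested gene of 8 lists (blue, with the list median as a bar), for shRNA against control (left) and PlyA-KI against WT (right). The 3 rows lie at −0.62 to −0.51 on the left and 1.47 to 1.55 on the right, while the medians of the synthetase, polymerase, processing and exosome lists lie between −0.09 and 0.05.

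To see which genes had a pattern most like the short identifier, log2 CPM was centred within each experiment and correlated over the 8 libraries, which share library totals and group structure, for 10269 other genes. The long identifier ranked first (r = 0.99) and Lars2 had rank 91 (r = 0.87). The next 4 were Mpg, a DNA repair glycosylase (0.99), Fabp7, a fatty acid binding protein of radial glia (0.98), C9orf72 (0.98) and the peptidyl-prolyl isomerase gene Pin4 (0.97). Those 4 spanned 1.14-fold to 1.22-fold in the knockdown and 1.10-fold to 1.29-fold in the knock-in experiment, near the median spans of 1.27 and 1.18 over all these genes. The spans of the 3 rows were 2.64-fold to 3.43-fold and 3.82-fold to 4.17-fold, with at most 28 genes spanning more than any of them in the knockdown and at most 14 in the knock-in experiment. Centred within each group, so that only differences between replicates count, r was 0.98 for the long identifier and 0.59 for Lars2. These values rest on only 4 replicate pairs. From PlyA-KI 1 to PlyA-KI 2 the short identifier moved by 0.43 and Lars2 by −0.84 on the log2 scale.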

How the data were processed

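The submitters' processing notes name the tools featureCounts, HISAT2, Trimmomatic and bcl2fastq and the build mm10. For the annotation, the strand setting, versions and the treatment of reads with several matches, the sources used here give nothing. The last of these bears directly on ribosomal RNA, which has many gene copies. The authors deposited per library raw counts per gene and FPKM values (counts scaled by gene length and library total). The implied lengths were whole and the same in all libraries for 100% of 20653 genes (tolerance 0.01).

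CPM used the library total over all genes. Names came from the RefSeq gene table of GRCm38.p6 (25274 genes) and GENCODE M21 (18). The 4 libraries of an experiment made 1 fit, using edgeR 4.0.16 and R 4.3.3 (genes kept by filterByExpr, TMM factors 0.993 to 1.012, quasi-likelihood F-test, two-sided, Benjamini-Hochberg over all genes, threshold 0.05). The SE is the absolute log2 fold change over the square root of F. The fit was run on simulated counts with large known changes, so that run does not show how it handles small ones. Alternatives included DESeq2 1.42.0. Ratios and CPM carry exact binomial intervals, from scipy 1.17.1. The rows, lists, tests and naming rule were chosen with earlier results of these data known. The rule names the 3 rows, detected ribosomal and small noncoding RNAs, the genes with the smallest p of each list, the 6 nearest tested neighbours of Lars2 and the genes most like the short identifier. Fewer genes are named for some lists than the rule allows.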

Additional observations from a re-analysis of the deposited data

How the results depend on the processing

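Of 296 values recomputed under an alternative, 259 counted as the same and 36 as moved. The knockdown fold change of the short identifier without shRNA 2 counted as reversed. The same meant within the spread between replicates for a fold change or median, within 1.5 times for a count and within 0.1 for a likeness. Ratio spans from FPKM were 1.30 and 1.68 in the knockdown and 1.03 and 2.41 in the knock-in experiment, as from counts. No scaling, filter or test moved a fold change of the 3 rows by more than the spread between replicates, library totals without the 3 rows included. Counts of called genes did move. In the knockdown experiment edgeR called 0 genes, but 184 with no filter (2 of them in the 8 lists), 163 with the replicate block, 53 in one fit of all 8 libraries and 18 to 133 with a library left out (0 to 2 in the lists), and DESeq2 called 48. In the knock-in experiment edgeR called 8, but 484 with no filter (7 in the lists), 2193 with the replicate block (31 in the lists), 4 in one fit of all 8 libraries and 48 to 565 with a library left out (0 to 6 in the lists), and DESeq2 called 115. The cause was not tested. The replicate numbers give only 2 pairs in each experiment, and same-numbered libraries deviated together at r = 0.32 and 0.23, so the block is a description. Under it the 3 rows lay at −0.67, −0.58 and −0.64, and at 1.54, 1.54 and 1.42.

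Leaving out a library moved the knockdown fold change of the short identifier between −1.51 and 0.079 (turned in sign without shRNA 2), of the long identifier between −1.24 and −0.023 and of Lars2 between −1.09 and −0.23. In the knock-in experiment Lars2 ranged from 0.99 to 1.82. Knockdown medians ranged from −1.68 to 0.46 for small noncoding RNAs, −0.24 to 0.14 for small nuclear and nucleolar RNAs, −0.043 to 0.043 for mitochondrial synthetases (0.036 with library totals alone) −0.068 to −0.012 for processing factors, −0.34 to 0.06 for histones (turned without control 1), −0.05 to 0.04 for RNA polymerase I, −0.03 to 0.06 for cytosolic synthetases and −0.07 to −0.01 for the exosome. Knock-in medians ranged from −0.13 to −0.033 for RNA polymerase I −0.10 to 0.028 for small nuclear and nucleolar RNAs, 0.10 (without WT 1) to 0.92 (without WT 2) for small noncoding RNAs, −0.14 (without PlyA-KI 2) to 0.01 (without WT 2) for processing factors, 0.05 to 0.16 for histones, −0.07 to −0.01 for mitochondrial and −0.16 to −0.02 for cytosolic synthetases, and −0.09 to 0.05 for the exosome. The likeness of Lars2 to the short identifier moved from 0.87 to 0.59 when centred within group. With 2 libraries a group, and only counts per gene, the position of Lars2 reads was not analysed here.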
